A study of Mus musculus with 36 samples.

Results

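Genes of DNA replication and of mitosis were followed in mouse liver through feeding, fasting and refeeding. The 44 genes were taken by symbol from a list, out of 38283 genes in the deposited count table, and fall into 25 genes that prepare, start or carry out DNA replication and 19 genes that act in mitosis. They were chosen with earlier results of these data known, so their counts beside all genes only describe them. RNA was sequenced from the livers of 36 male C57Bl/6J mice aged 16 weeks, all kept on chow. Wild-type mice were compared with mice that carry the Y657X mutation of PIK3R1, a knock-in of a human disease allele kept as heterozygotes, so that every liver cell type carries the mutation. Each genotype was harvested fed, after a 16 h fast, or after a 16 h fast and 6 h of refeeding, with 6 mice in each of the 6 groups, so that feeding state and time of harvest cannot be told apart. Summed counts per mouse ran from 8839488 to 19542775, with a median of 13596666. Levels are given as CPM, with library sizes normalised by the TMM method, and a gene was called where the quasi-likelihood test of edgeR gave a Benjamini-Hochberg adjusted p under 0.05 over all 13945 genes tested.

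Before a cell can copy its DNA, origins are licensed: Cdc6 and Cdt1 load the ring-shaped MCM helicase, and the GINS complex and Cdc45 later turn it into an active machine. E2F transcription factors drive these genes as a cell leaves rest, and genes of mitosis follow: at rest the DREAM complex represses them through a promoter element called the cell cycle homology region, and once it comes apart a complex with B-MYB activates them. Hepatocytes of adult mice rarely divide and many are polyploid, so transcripts of these genes can come from few cycling cells, from hepatocytes that copy DNA without dividing, or from other liver cells.

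The replication and mitosis genes differed in the letters of their promoters, which the member choice did not use. Promoters of 300 bases, 250 before and 50 after the start site, were taken from RefSeq for build GRCm38.p6 and matched 36 of the 44 genes. Tpx2, Mcm4, Ccne2, Gins1, Aurkb, Gins2, Ccna2 and Foxm1 were not matched. An E2F motif (TTTCCCGC, TTTCGCGC, TTTGCCGC or TTTGGCGC, either strand) was present in 9 of 21 replication promoters (42.9%) and 1 of 15 mitosis promoters (6.67%), beside 2.6% of all 27025 genes with a promoter. The cell cycle homology region (CHR, TTTGAA, either strand) was present in 4 of 21 replication promoters (19%) and 11 of 15 mitosis promoters (73.3%), beside 20.2% of all genes. The NF-Y box (CCAAT, either strand), which binds the general activator NF-Y, was present in 13 of 21 replication (61.9%) and 13 of 15 mitosis promoters (86.7%), beside 41.1% of all genes. A match describes the letters only.

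**Figure D1:**
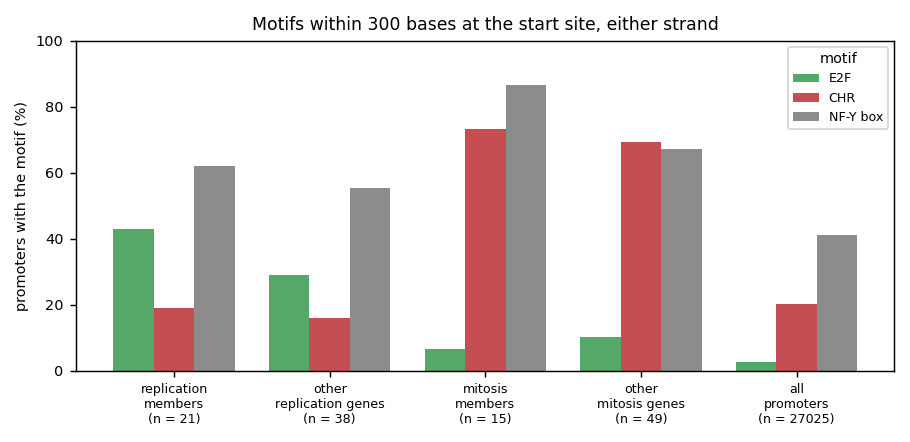
Share of promoters (y axis, %) that hold each motif on either strand, for the replication and mitosis members, for the other genes listed with each role, and for all genes with a promoter; n gives the promoters. E2F bars are tallest for replication members (42.9%) and CHR bars for mitosis members (73.3%).

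A pair of promoters of each kind is shown, from genes whose levels moved with feeding in both genotypes or in Y657X mice. Mcm5 (chr8:75109259-75109558, plus strand) and Mcm6 (chr1:128359656-128359955, minus strand) encode helicase subunits, and each has a pair of E2F matches that overlap on opposite strands, with 1 more apart from them in Mcm6. Mki67 (chr7:135716330-135716629, minus strand), the gene of the proliferation antigen Ki-67, and Kif11 (chr19:37376132-37376431, plus strand), a spindle motor, have CHR and NF-Y motifs and no E2F motif of these letters. Capitals mark the motif matches on either strand.
Mcm5: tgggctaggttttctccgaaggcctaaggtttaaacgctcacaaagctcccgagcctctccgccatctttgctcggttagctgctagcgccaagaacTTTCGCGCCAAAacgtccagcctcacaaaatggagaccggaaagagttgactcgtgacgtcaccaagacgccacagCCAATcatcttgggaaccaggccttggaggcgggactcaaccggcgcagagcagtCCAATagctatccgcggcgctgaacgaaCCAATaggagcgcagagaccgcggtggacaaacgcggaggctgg
Mcm6: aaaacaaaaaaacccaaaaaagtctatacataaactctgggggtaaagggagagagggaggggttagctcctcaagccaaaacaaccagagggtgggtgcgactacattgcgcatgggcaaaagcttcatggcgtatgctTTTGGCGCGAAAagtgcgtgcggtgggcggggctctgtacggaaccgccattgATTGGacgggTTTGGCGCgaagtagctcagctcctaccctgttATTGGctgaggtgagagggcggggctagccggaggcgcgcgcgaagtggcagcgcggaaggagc
Mki67: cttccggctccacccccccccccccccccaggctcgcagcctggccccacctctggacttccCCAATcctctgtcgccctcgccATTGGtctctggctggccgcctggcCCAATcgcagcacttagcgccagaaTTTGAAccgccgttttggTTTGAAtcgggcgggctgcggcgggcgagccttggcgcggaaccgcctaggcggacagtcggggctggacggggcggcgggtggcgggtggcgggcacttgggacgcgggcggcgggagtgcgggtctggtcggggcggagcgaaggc
Kif11: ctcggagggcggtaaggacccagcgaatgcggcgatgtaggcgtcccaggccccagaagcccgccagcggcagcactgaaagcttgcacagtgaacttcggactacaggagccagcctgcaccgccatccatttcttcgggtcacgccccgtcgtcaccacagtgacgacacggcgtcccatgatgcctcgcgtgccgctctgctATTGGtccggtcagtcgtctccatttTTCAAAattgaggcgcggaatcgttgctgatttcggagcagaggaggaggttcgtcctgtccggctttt

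Levels were low throughout. For scale, Alb, which encodes serum albumin and marks hepatocytes, averaged 50700 CPM. Per kilobase of exon, the mean level over all mice ran from 0.0435 to 4.78 CPM per kb for the 25 replication genes, with a median of 0.767, and from 0.0502 to 0.947 for the 19 mitosis genes, with a median of 0.261. The 11 genes with the highest level per kb were all replication genes. They were led by Pcna, the sliding clamp of DNA polymerase, and Tk1, a thymidine kinase of nucleotide salvage, and the lowest was Cdc6.

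A filter on low counts kept 38 of the 44 genes, 24 of replication and 14 of mitosis. The 6 left out were the cyclin gene Ccnb1 (mean count 4.81), the loading factor gene Cdc6 (3.14), the checkpoint kinase gene Bub1 (3), the mitotic kinase genes Plk1 (4.36) and Aurkb (3.89), and Foxm1 (5.39), the gene of a factor that activates mitosis genes. The main fit gives no direction for these 6. Of the 38 tested, 25 were called in at least 1 of 11 comparisons, as were 9560 of all 13945 genes (68.6%), so this count does not set the members apart. The 13 called in none were Cdt1, Mcm7, Pcna, Gins2, Tyms, E2f1, Ccne2, Chek1, Hells, Aurka, Birc5, Cdk1 and Nusap1. Counts of 14 genes could hold reads of a gene that shares exon bases with them. For 12 of these a partner lies on the opposite strand, where it matters how reads were counted, and the counting strand is not given in the sources used here; Foxm1 and Top2a share bases only with genes on the same strand. Gins2 shares 67.3% of its exon bases with Gse1 and Ube2c shares 22.8% with Tnnc2, both on the opposite strand, so the levels of Gins2 and Ube2c are uncertain. Ccne2 shares 17.4%, Mcm7 12.6%, Ccna2 12.5%, E2f8 11.2% and Prc1 11.1%, and the other 7 less.

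Some mice stood apart in the mitosis genes before any comparison was made. The summed level of the 19 mitosis genes ran, as lowest, median and highest mouse, 20, 21.9 and 38 CPM in fed wild-type mice and 18.6, 32.1 and 65.6 CPM in fed Y657X mice. In fasted mice it ran 17.6, 19.1 and 25 CPM in wild-type and 17.3, 21.3 and 56.1 CPM in Y657X. In refed mice it ran 14.6, 16.3 and 16.8 CPM in wild-type and 14.2, 16.9 and 24.1 CPM in Y657X. The highest 3 mice were all Y657X: fed 4 (65.6 CPM), fed 3 (62.1 CPM) and fasted 4 (56.1 CPM), and every other mouse had 38 CPM or less. Y657X refed 2 (24.1 CPM) and Y657X fasted 2 (25.7 CPM) also lay above every wild-type mouse of their state. The summed level of the 25 replication genes was highest in Y657X fed 4 (172 CPM) and lowest of all 36 mice in Y657X fasted 4 (99.4 CPM). The latter mouse was thus high in the mitosis sum and low in the replication sum, but not in every replication gene. Its Tk1 was low (8.42 CPM, beside 15.2 to 18.8 CPM in the other fasted Y657X mice). Its Mcm4 (5.61 CPM), Mcm5 (2.46 CPM), Mcm6 (4.56 CPM) and Rrm1 (10.8 CPM) were the highest of the fasted Y657X mice. Y657X fasted 4 also had the highest Cdkn1a, the gene of the cell cycle inhibitor p21, at 59.2 CPM, and the highest Ccnd1, the gene of cyclin D1, at 125 CPM. Member calls lost when these 3 mice were left out together are given with the value without them. Leaving them out was a choice made after seeing the data. As they were picked by their mitosis levels, such a value shows only how far a call rests on them. For the other gene lists no such value is given.

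**Figure D2:**
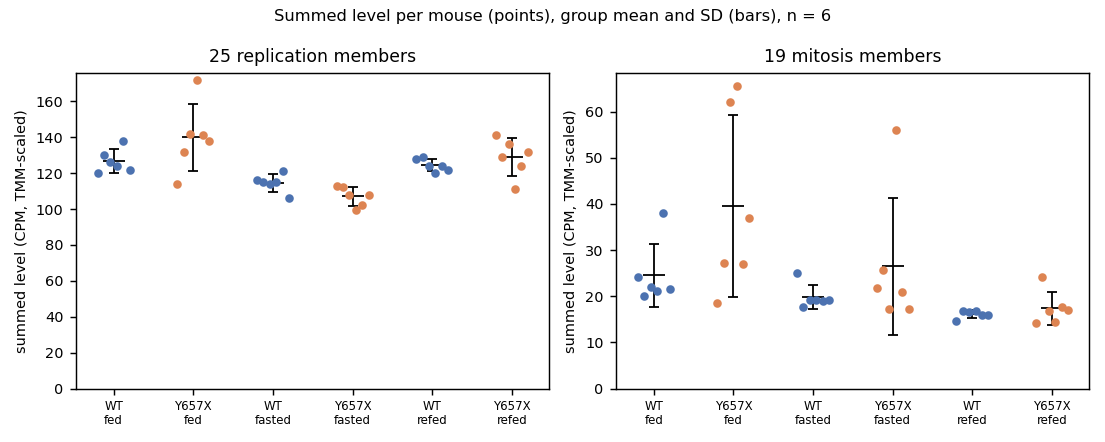
Summed level (y axis, CPM) of the 25 replication genes and the 19 mitosis genes in each mouse (points), with group mean and SD (bars), n = 6 a group. Y657X fed 3 and fed 4 and Y657X fasted 4 lie between 56.1 and 65.6 CPM in the mitosis panel, and every other mouse lies at or below 38 CPM.

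Markers of immune cells were also high in some of these mice. Summed over the 9 Kupffer cell and macrophage markers found, of 10 listed, Y657X fed 1 to 6 had 274, 586, 786, 933, 593 and 263 CPM, and the 6 fed wild-type mice lay between 278 and 403 CPM. Fasted mice lay between 323 and 593 CPM in wild-type and 334 and 559 CPM in Y657X, with 532 CPM in Y657X fasted 4. Refed mice lay between 286 and 636 CPM in wild-type and 299 and 845 CPM in Y657X, the highest being Y657X refed 2, which was also the refed mouse highest in mitosis genes, E2f2, Ccne1 and Brca1. That mouse had 30.1 CPM of neutrophil, 12.2 CPM of B cell and 9.11 CPM of T and NK cell markers, each the highest of the refed mice. Wild-type refed 3 came next in macrophage (636 CPM), neutrophil (24.5 CPM), B cell (6.39 CPM) and T and NK cell markers (5.97 CPM). Its mitosis sum, 16.6 CPM, was not high. In the Kupffer cell and macrophage sum, Y657X fed 4 and fed 3 were the highest fed mice, as in the mitosis genes. Y657X fed 6, with 37 CPM of mitosis genes, had the lowest such sum of the fed mice (263 CPM). All 9 of these markers had a positive fitted difference by genotype in fed mice (median 0.70 log2) and 0 were called. The edgeR test gave all 9 an unadjusted p under 0.05, as it did 2423 of all 13945 genes. Cd5l was the most abundant of the 9 at a mean of 109 CPM. The 8 T and NK cell markers, of which Cd4 had the highest mean, summed to 9 CPM in Y657X fed 3 and 9.13 CPM in Y657X fed 4, beside 3.32 to 4.33 CPM in the other 4 fed Y657X mice and 2.36 to 3.83 CPM in fed wild-type mice. Gzma made up 2.58 and 2.75 CPM of these sums in Y657X fed 3 and fed 4, and Cd4 only 0.628 and 1.52 CPM. The 5 B and plasma cell markers found, of 7 listed and led by Cd79b, summed to 13.2 CPM in Y657X fed 3 and 4.57 CPM in Y657X fed 4, beside 1.84 to 4.73 CPM in the other 4 fed Y657X mice and 1.91 to 2.8 CPM in fed wild-type mice. The 8 neutrophil markers, led by S100a9, were highest among fed mice in Y657X fed 5 (24.7 CPM), which was not high in mitosis genes, and summed to 20.3 CPM in Y657X fed 3 and 5.09 CPM in Y657X fed 4, beside 0.571 to 5.72 CPM in fed wild-type mice, with Ly6g at 0 in 35 of 36 mice and Elane in 24. Called higher in fed Y657X mice were 1 of 3 T and NK cell and 1 of 5 B cell markers tested. So were 1 of 3 neutrophil and 1 of 6 stellate cell markers, beside 169 of all 13945 genes. The T and NK cell call was Gzma, at 0 in 4 of 36 mice, and the neutrophil call was Ltf, at 0 in 14. In fasted Y657X mice 2 of 6 stellate and 1 of 6 endothelial markers were called higher, beside 6.43% of all genes. The 6 stellate cell markers, led by Dcn, summed to 642 CPM in Y657X fasted 4 and 636 CPM in Y657X fed 3, the highest of all mice. No marker of these lists was at 0 in every mouse. In Y657X fasted 2 and fasted 4, T and NK cell markers summed to 7.48 and 6.67 CPM. The other 4 fasted Y657X mice had 1.85 to 3.94 CPM of them and fasted wild-type mice 1.79 to 3.72 CPM. Neutrophil markers summed to 7.33 and 4.21 CPM in Y657X fasted 2 and fasted 4. The other 4 fasted Y657X mice had 2.43 to 2.77 CPM of these, all above the 0.582 to 1.99 CPM of fasted wild-type mice. B cell markers of Y657X fasted 2 and fasted 4 (4.01 and 3.93 CPM) lay within the range of fasted wild-type mice. The 9 erythroid precursor markers found were highest of all mice in Y657X fed 4 (419 CPM) and low in Y657X fed 3 (259 CPM), beside 255 to 355 CPM in fed wild-type mice. Markers of other cells moved with feeding as well, not all one way: the collagen genes Col1a1 and Col3a1 of the stellate list fell with fasting in both genotypes and were lower in refed than in fed mice (Col1a1 -2.31 log2 in wild-type and -1.76 in Y657X, Col3a1 -1.53 and -1.45). Reln of that list was lower in refed than in fed mice too (-0.31 and -0.70), Lrat rose with refeeding (0.79 and 0.58), and Dcn and Rgs5 were called in no feeding comparison. In refed against fed wild-type mice the cholangiocyte markers Spp1 (-1.18) and Sox9 (-1.10) were lower too. Of the endothelial markers, Stab2 (-0.33 and -0.48) and Kdr (-0.21 and -0.32) fell with refeeding in both genotypes. Of the T and NK cell markers tested, Cd4 fell with fasting in both (-2.01 and -1.40). Cd8a (0.49 and 0.51) and Gzma (0.90 and -0.25) were not called. The B cell markers Ms4a1 (2.06) and Cd79b (1.16) rose with fasting in wild-type mice, and no B cell marker was called with fasting in Y657X mice. The summed endothelial markers, led by Stab2, lay between 326 and 375 CPM in fasted and 254 and 337 CPM in refed wild-type mice and between 301 and 375 CPM and 257 and 289 CPM in Y657X mice. The summed cholangiocyte markers, led by Spp1, lay between 31.2 and 79.6 CPM in fed and 20.4 and 31.3 CPM in refed wild-type mice, and the summed stellate markers between 318 and 486 CPM and 347 and 476 CPM. The part of these cells in the results was not tested, and fewer cells of a type and less RNA per cell cannot be told apart in whole liver.

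With fasting, more members were called lower than higher in both genotypes. In wild-type mice, 7 of 38 members were called lower (17.5% of all genes tested) and 1 higher (14.5% of all genes). In Y657X mice, 14 were called lower (17.7% of all genes) and 1 higher (15.2% of all genes). The share lower was about that of all genes in wild-type and above it in Y657X mice. Of the genes called lower, 6 of 7 and 11 of 14 were replication genes, out of 24 tested. Without the 3 high mice, 10 members were called lower in Y657X mice, all of replication, and 0 of the 3 mitosis calls remained, with 2 fed and 1 fasted mouse fewer. The median fasting change was -0.33 log2 over the 24 replication genes tested and -0.23 over the 14 mitosis genes in wild-type mice, and -0.50 and -0.39 in Y657X mice, beside 0.01 and -0.01 over all genes. The Y657X medians were -0.52 and -0.43 without the 3 high mice, so the fall over each list was about as large.

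With refeeding, the replication genes that were called rose, apart from E2f8, and the mitosis genes that were called fell, but most members of either role were not called. In wild-type mice, 5 members were called higher (16.5% of all genes), all of replication, and 2 lower (13.7% of all genes), both of mitosis. In Y657X mice, 7 were called higher (17.1% of all genes), all of replication, and 5 lower (14.2% of all genes), 4 of them of mitosis. The share of members called was near or below that of all genes in both genotypes. The median refeeding change was 0.11 log2 for replication and -0.29 for mitosis genes in wild-type mice, and 0.40 and -0.81 in Y657X mice, beside 0.00 and -0.01 over all genes. Without the 3 mice named above, the mitosis median in Y657X mice was -0.32, and the mitosis gene Ccna2 was called higher in both genotypes. The count of 7 in wild-type mice was 4 without wild-type refed 2 and 4 without wild-type refed 5.

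Refed mice were also compared with fed mice, where most of the called members were lower. In wild-type mice, 0 members were called higher (13.2% of all genes) and 4 lower (14.3% of all genes); edgeR gave 11 members an unadjusted p under 0.05 in either direction, and DESeq2 called 1 higher (Tk1) and 5 lower. The 4 were the mitosis genes Mki67 and Top2a and the replication genes Rrm2 and E2f2, a share below that of all genes. In Y657X mice, 1 was called higher (13% of all genes) and 10 lower (13.1% of all genes), 7 of the 10 of mitosis. Without Y657X fed 4, 7 members were called in place of 11, and without the 3 high mice, 5 were called, 3 of them of mitosis. The median difference was -0.12 log2 over the replication and -0.51 over the mitosis genes in wild-type mice and -0.20 and -1.07 in Y657X mice, or -0.06 and -0.82 without the 3 high mice, beside 0.02 and -0.00 over all genes. The fasting, refeeding and refed-against-fed comparisons of a genotype share their mice, so their values are set side by side and not counted as separate support. Fed mice also carry mouse numbers of another series than the fasted and refed mice, and this and feeding cannot be told apart. Fasted and refed mice fell evenly into a lower and a higher number series, 3 mice of each group in each. In the higher series every refed mouse has a lower number than every fasted one. Feeding state and mouse number cannot be told apart there. Refeeding values within each series are given for some genes below.

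**Figure D3:**
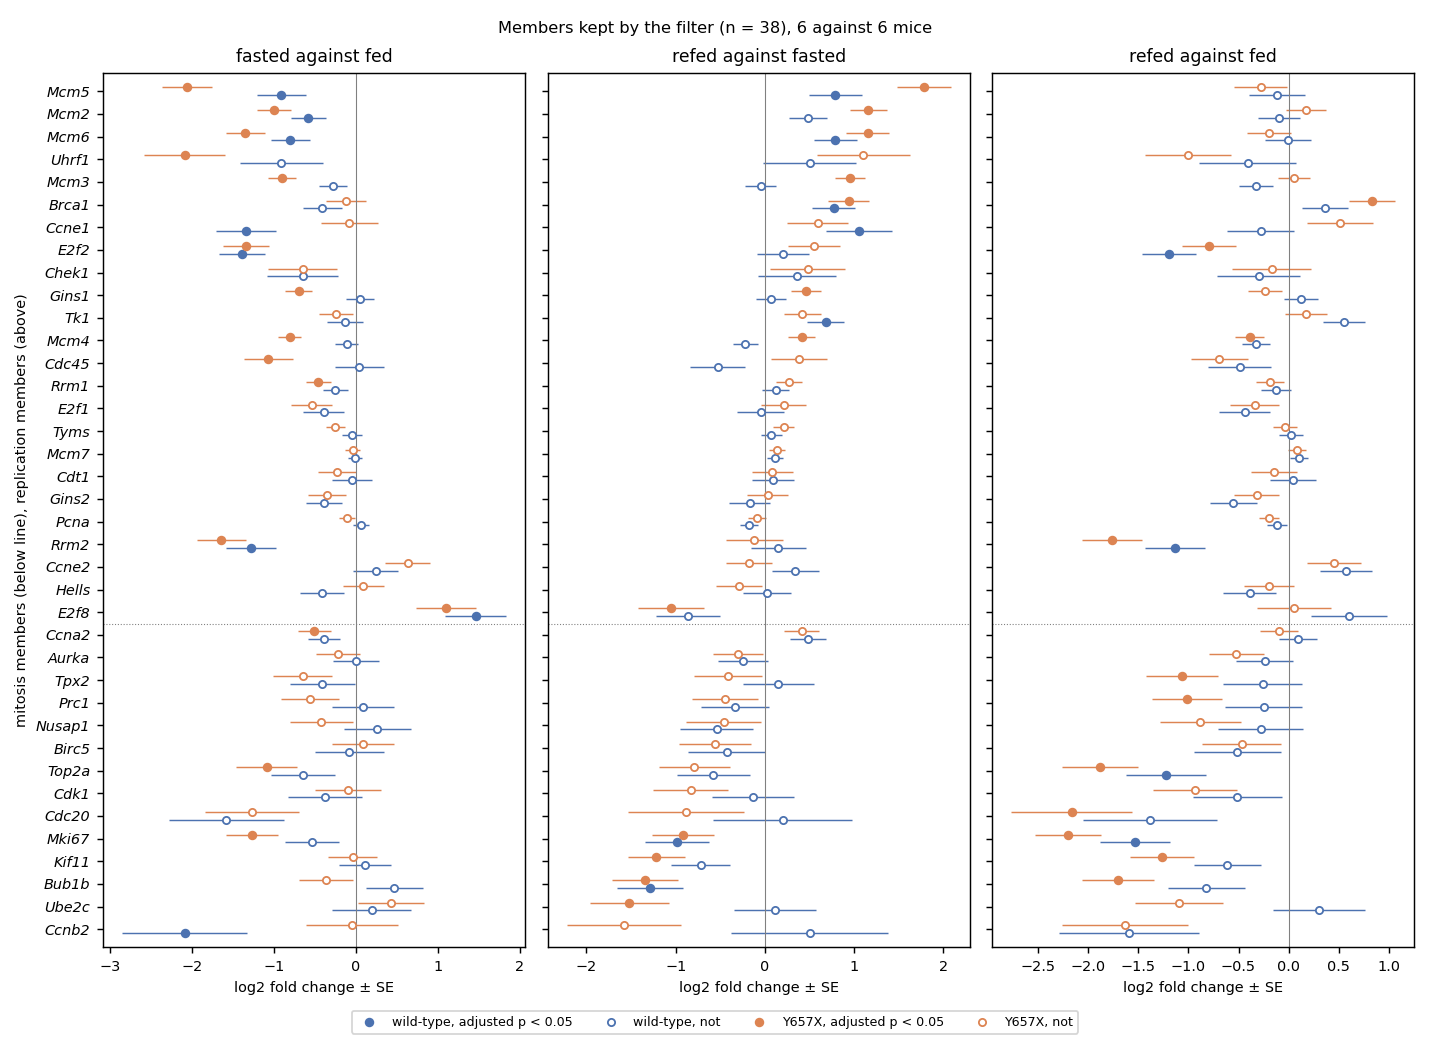
Log2 fold change with its SE (x axis) of the 38 genes tested, for fasted against fed, refed against fasted and refed against fed mice, n = 6 a group; blue, wild-type; orange, Y657X; filled points, adjusted p under 0.05 by edgeR. Replication genes stand above the dotted line, led by Mcm5, and mitosis genes below it; of the filled points between refed and fasted mice, those above the line lie right of 0 except E2f8, and those below it lie left of 0.

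The genes of the MCM helicase, which unwinds DNA at the fork, differed in their calls with feeding. Mcm5 and Mcm6 were called with both fasting and refeeding in both genotypes, Mcm2, Mcm3 and Mcm4 with both in Y657X mice only, and Mcm7 in no comparison. A call in 1 genotype alone is not a test of a difference between genotypes. Among the MCM genes, the difference in response was called only for Mcm4 with fasting and Mcm3 with refeeding. In every call given below, 6 of 6 mice lay beyond the median of the other group unless 5 of 6 is stated. Mcm5 (ENSMUSG00000005410), a subunit of the ring, had a lowest, median and highest level of 2.51, 4.37 and 9.78 CPM in fed, 0.502, 1.18 and 2.46 CPM in fasted and 3.14, 4.2 and 5.52 CPM in refed Y657X mice. Every fasted Y657X mouse lay below every fed and every refed one. In wild-type mice the same values were 1.89, 3.45 and 4.32 CPM fed, 1.05, 1.58 and 2.68 CPM fasted and 2.29, 2.77 and 3.46 CPM refed, with fasted mice lowest but overlapping both other groups. Mcm5 fell by 2.06 on the log2 scale with fasting in Y657X mice (SE 0.30, edgeR quasi-likelihood test, Benjamini-Hochberg adjusted p = 1.1e-06) and rose by 1.78 with refeeding (SE 0.30, edgeR adjusted p = 1.5e-05). In wild-type mice it fell by 0.91 with fasting (SE 0.30, edgeR adjusted p = 0.0163) and rose by 0.79 with refeeding (SE 0.30, edgeR adjusted p = 0.0382). That last call was lost when any of 7 mice was left out, wild-type fasted 1, 2, 3 or 6 or wild-type refed 2, 4 or 5, with adjusted p between 0.0516 and 0.0912. Within the lower and the higher number series the wild-type rise was 1.15 and 0.53, neither called.

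Mcm6 (ENSMUSG00000026355), a subunit of the same ring, followed. Its levels ran 4.54, 6.05 and 8.01 CPM in fed, 2.08, 3.41 and 4.77 CPM in fasted and 4.66, 6.09 and 7.16 CPM in refed wild-type mice. In Y657X mice they ran 3.67, 6.92 and 15.2 CPM fed, 1.81, 3.17 and 4.56 CPM fasted and 4.72, 7.37 and 9.04 CPM refed. Fasted mice were lowest in both genotypes, and in Y657X mice no fasted mouse reached a refed one. Mcm6 fell with fasting in wild-type (-0.80 log2, SE 0.24, edgeR adjusted p = 0.00986) and Y657X mice (-1.35, SE 0.24, edgeR adjusted p = 3.2e-05). It rose with refeeding in both (0.79, SE 0.24, edgeR adjusted p = 0.0114, and 1.15, SE 0.24, edgeR adjusted p = 3.2e-04). None of these 4 calls was lost when any single mouse was left out.

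Mcm2, Mcm3 and Mcm4, the other subunits called, had larger fitted responses in Y657X than in wild-type mice, as had Mcm5. For Mcm2 the genotype difference was called neither in the fasting (-0.42, SE 0.30, edgeR adjusted p = 0.475) nor in the refeeding response (0.68, SE 0.30, edgeR adjusted p = 0.254). Mcm3 levels ran 4.39, 5.94 and 9.72 CPM in fed, 2.78, 3.56 and 4.02 CPM in fasted and 5.95, 6.63 and 7.7 CPM in refed Y657X mice. In wild-type mice they ran 4.27, 5.19 and 5.92 CPM, 3.46, 3.93 and 5.71 CPM, and 2.5, 4.26 and 5.35 CPM in the same order. Fasted Y657X mice were apart from fed and refed Y657X mice, and the wild-type groups overlapped each other. Mcm3 fell by 0.90 on the log2 scale with fasting (SE 0.17, edgeR adjusted p = 6.8e-05) and rose by 0.95 with refeeding in Y657X mice (SE 0.17, edgeR adjusted p = 3.6e-05), and was called in neither comparison in wild-type mice. Mcm2 levels ran 4.03, 4.98 and 7.79 CPM in fed, 1.45, 2.86 and 3.24 CPM in fasted and 4.22, 6.31 and 6.8 CPM in refed Y657X mice. All fasted Y657X mice were below the others. Mcm2 fell by 1 on the log2 scale with fasting (SE 0.21, edgeR adjusted p = 3.9e-04) and rose by 1.16 with refeeding in Y657X mice (SE 0.21, edgeR adjusted p = 5.5e-05). In wild-type mice its levels ran 4.27, 4.85 and 6.43 CPM fed, 2.16, 3.44 and 4.77 CPM fasted and 2.63, 4.93 and 6.58 CPM refed, which overlap. There it fell with fasting (-0.58, SE 0.21, edgeR adjusted p = 0.0335), a call lost without wild-type fasted 2, 4 or 6 or wild-type fed 2 or 3 (adjusted p between 0.0602 and 0.0957).

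Mcm4 had a different pattern in the wild-type mice. Its levels ran 6.07, 7.05 and 7.93 CPM in fed, 5.8, 6.5 and 7.38 CPM in fasted and 4.02, 5.65 and 7.28 CPM in refed wild-type mice, and 5.74, 7.84 and 10.5 CPM, 3.33, 4.39 and 5.61 CPM and 4.95, 5.94 and 7.64 CPM in Y657X mice. Fasted Y657X mice were below all fed Y657X mice and below all fasted wild-type mice. Mcm4 fell by 0.81 with fasting in Y657X mice (SE 0.14, edgeR adjusted p = 3.2e-05). It rose by 0.41 with refeeding there (SE 0.15, edgeR adjusted p = 0.0273), a call lost without Y657X fasted 1, 3 or 5 or Y657X refed 2 or 6 (adjusted p between 0.0544 and 0.0883). Refed Y657X mice remained below fed ones (-0.39, SE 0.14, edgeR adjusted p = 0.0338), a call lost without Y657X refed 1, 4 or 5 or Y657X fed 2 or 4 (adjusted p between 0.0611 and 0.126) and without the 3 high mice (-0.27, adjusted p = 0.198). Mcm7, the last subunit, lay between 9.89 and 16.4 CPM in all mice and was called in no comparison. Within the lower and the higher number series, refeeding in Y657X mice gave 1.44 and 2.19 for Mcm5, 1.16 and 1.17 for Mcm2, 0.97 and 0.92 for Mcm3 and 1.16 and 1.14 for Mcm6, each with 3 mice a group and each called by edgeR. For Mcm4 they gave 0.22 and 0.60, neither called.

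**Figure D4:**
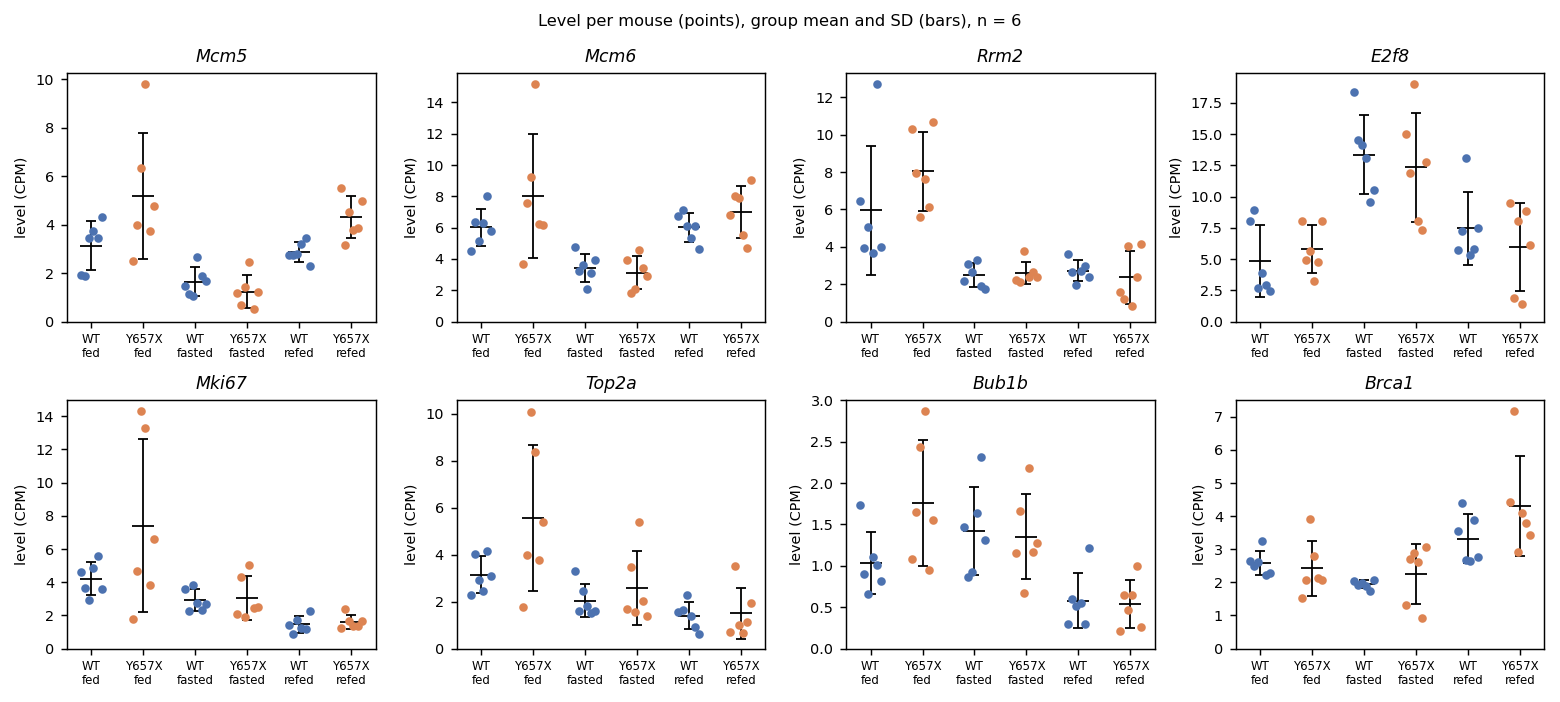
Level (y axis, CPM) of 8 genes in each mouse (points), with group mean and SD (bars), n = 6 a group. Mcm5 and Mcm6 are low in fasted mice, Rrm2 is low in fasted and refed mice, E2f8 is high in fasted mice, and Mki67, Top2a and Bub1b are low in refed mice.

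Gins1 and Cdc45, whose products join the MCM ring to form the active helicase, fell with fasting in Y657X mice. Gins1 (ENSMUSG00000027454) levels ran 2.33, 3.01 and 3.49 CPM in fed, 1.59, 1.83 and 2.11 CPM in fasted and 2.06, 2.6 and 2.84 CPM in refed Y657X mice. In wild-type mice they ran 2.05, 2.67 and 3.34 CPM fed, 2.25, 2.76 and 3.14 CPM fasted and 1.55, 2.89 and 4.12 CPM refed. The fasted Y657X mice were below all fed Y657X mice, and the wild-type groups overlapped. Gins1 fell by 0.70 with fasting in Y657X mice (SE 0.17, edgeR adjusted p = 0.00167). Its rise with refeeding (0.46, SE 0.17, edgeR adjusted p = 0.0389) was lost in 7 of 12 fits with 1 mouse left out, Y657X fasted 1, 2 or 5 or Y657X refed 2, 3, 5 or 6 (adjusted p between 0.056 and 0.0831), without the 3 high mice (0.49, adjusted p = 0.051), and with DESeq2 (adjusted p = 0.056). Cdc45 ran 1.05, 1.48 and 3.16 CPM in fed and 0.502, 0.796 and 1.21 CPM in fasted Y657X mice, which overlap, and fell by 1.07 (SE 0.30, edgeR adjusted p = 0.00504). The loading factor gene Cdt1 lay between 0.931 and 3.86 CPM and Gins2 between 4.7 and 14.8 CPM over all mice, and neither was called. Cdc6 was at most 0.995 CPM.

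Genes that supply nucleotides did not move as one. Rrm2 (ENSMUSG00000020649), the regulated subunit of ribonucleotide reductase, ran 3.67, 4.52 and 12.7 CPM in fed, 1.77, 2.43 and 3.29 CPM in fasted and 1.96, 2.7 and 3.62 CPM in refed wild-type mice. In Y657X mice it ran 5.58, 7.79 and 10.7 CPM fed, 2.12, 2.39 and 3.77 CPM fasted and 0.835, 1.98 and 4.13 CPM refed. Fed mice of either genotype were above every fasted and refed mouse of that genotype, and refed mice overlapped fasted ones. Rrm2 fell with fasting by 1.28 in wild-type (SE 0.30, edgeR adjusted p = 0.00114) and 1.64 in Y657X mice (SE 0.30, edgeR adjusted p = 4.6e-05). It remained lower in refed than in fed mice, by -1.13 in wild-type (SE 0.30, edgeR adjusted p = 0.00392, or -0.75 and 0.0391 without wild-type fed 5) and -1.76 in Y657X mice (SE 0.30, edgeR adjusted p = 2.7e-05), unlike the MCM genes Mcm2, Mcm3, Mcm5 and Mcm6, of which none was called between refed and fed mice. Rrm1, the large subunit of the same enzyme, ran 6.9, 10.8 and 15.8 CPM in fed and 5.69, 7.67 and 10.8 CPM in fasted Y657X mice and fell by 0.46 in 5 of 6 mice (SE 0.15, edgeR adjusted p = 0.0138), a call lost without Y657X fed 4 (-0.32, adjusted p = 0.0808) and without the 3 high mice (-0.38, adjusted p = 0.0525). Tk1, which salvages thymidine, ran 10, 13.7 and 21 CPM in fasted and 19.5, 22.4 and 31.6 CPM in refed wild-type mice, with a narrow overlap, and rose by 0.68 (SE 0.21, edgeR adjusted p = 0.0149). Within the lower and the higher number series the rise was 1.01 and 0.43, the second not called. Between refed and fed wild-type mice Tk1 just missed the threshold (0.55, SE 0.21, edgeR adjusted p = 0.0508), and 5 of 7 other settings called it higher. Tyms, which makes thymidylate, lay between 4.87 and 8.48 CPM and Pcna between 8.64 and 14.7 CPM over all mice, and neither was called.

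The E2F genes went different ways. E2f2, an activating member of the family, ran 1.68, 3.23 and 4.46 CPM in fed, 0.606, 1.1 and 2 CPM in fasted and 0.824, 1.3 and 1.82 CPM in refed wild-type mice, and 1.42, 2.51 and 3.98 CPM, 0.67, 0.969 and 1.51 CPM and 1.22, 1.34 and 2.37 CPM in Y657X mice. Fed mice were highest in both genotypes, with some overlap. It fell with fasting by 1.39 in wild-type (SE 0.28, edgeR adjusted p = 1.5e-04) and 1.34 in Y657X mice (SE 0.28, edgeR adjusted p = 2.9e-04), and was lower in refed than in fed wild-type mice (-1.19, SE 0.27, edgeR adjusted p = 9.7e-04). In Y657X mice the difference between refed and fed (-0.79, SE 0.27, edgeR adjusted p = 0.0254) was lost without Y657X fed 3 or 4 or Y657X refed 4, 5 or 6 (adjusted p between 0.0531 and 0.091) and without the 3 high mice (-0.45, adjusted p = 0.274). E2f8, an atypical member that represses replication genes and is tied to hepatocyte polyploidy, ran the other way. Its levels ran 2.45, 3.44 and 8.92 CPM in fed, 9.55, 13.6 and 18.4 CPM in fasted and 5.31, 6.53 and 13.1 CPM in refed wild-type mice, and 3.28, 5.31 and 8.07 CPM, 7.37, 12.3 and 19 CPM and 1.41, 7.1 and 9.51 CPM in Y657X mice. Every fasted wild-type mouse was above every fed one, and fasted Y657X mice overlapped fed ones at their lower end. E2f8 rose with fasting by 1.46 in wild-type (SE 0.37, edgeR adjusted p = 0.00292) and 1.10 in Y657X mice (SE 0.37, edgeR adjusted p = 0.0207), the latter lost without Y657X fasted 3 (0.94, adjusted p = 0.0585), Y657X fed 4 (0.97, adjusted p = 0.0536) or the 3 high mice (1.03, adjusted p = 0.0723). Its fall with refeeding in Y657X mice (-1.05, SE 0.37, edgeR adjusted p = 0.0273) was lost without Y657X fasted 1 or 3 or Y657X refed 2 or 4 (adjusted p between 0.0548 and 0.0739). E2f1 lay between 1 and 3.85 CPM and was not called.

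Among cyclins of the start of S phase and genes that guard or copy chromatin, Ccne1 and Brca1 changed with feeding. Ccne1, the gene of cyclin E1, ran 0.816, 1.42 and 2.27 CPM in fed, 0.358, 0.649 and 0.842 CPM in fasted and 0.824, 1.17 and 1.81 CPM in refed wild-type mice. Fasted mice were lowest, and 1 or more touched the other groups. It fell by 1.34 with fasting (SE 0.37, edgeR adjusted p = 0.0046) and rose by 1.05 with refeeding (SE 0.37, edgeR adjusted p = 0.0267), the rise being lost without wild-type fasted 2 or 5 or wild-type refed 2 or 5 (adjusted p between 0.0648 and 0.0685). In Y657X mice Ccne1 was called in neither comparison, and the genotype difference in its fasting change was not called (1.26, SE 0.51, edgeR adjusted p = 0.156). Brca1, which acts in repair of broken DNA and at stalled forks, ran 1.74, 1.96 and 2.08 CPM in fasted and 2.63, 3.16 and 4.4 CPM in refed wild-type mice, with no overlap, and 0.921, 2.66 and 3.08 CPM and 2.92, 3.95 and 7.19 CPM in Y657X mice, with a narrow overlap. It rose with refeeding by 0.77 (SE 0.24, edgeR adjusted p = 0.0128) and 0.94 (SE 0.23, edgeR adjusted p = 0.0018), and was higher in refed than in fed Y657X mice (0.83, SE 0.23, edgeR adjusted p = 0.00629). Within the lower and the higher number series the refeeding change of Brca1 in Y657X mice was 0.47 and 1.46, the first not called. Uhrf1, which maintains DNA methylation behind the fork, ran 0.538, 1.19 and 2.52 CPM in fed and 0.167, 0.318 and 0.386 CPM in fasted Y657X mice, without overlap, and fell by 2.09 (SE 0.49, edgeR adjusted p = 9.3e-04). Its mean count was 8.83, and it was too low to be tested in a fit of only the groups compared. Ccne2 lay between 0.976 and 4.55 CPM, the checkpoint kinase gene Chek1 between 0.145 and 1.53 CPM and Hells, a chromatin remodeler gene, between 0.716 and 2.64 CPM, and none was called.

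The mitosis genes Mki67 and Top2a were lower in refed than in fed mice of both genotypes. Mki67 (ENSMUSG00000031004) ran 2.9, 4.13 and 5.59 CPM in fed, 2.29, 2.73 and 3.84 CPM in fasted and 0.862, 1.33 and 2.29 CPM in refed wild-type mice. In Y657X mice it ran 1.79, 5.63 and 14.3 CPM fed, 1.89, 2.45 and 5.05 CPM fasted and 1.23, 1.52 and 2.37 CPM refed. Refed wild-type mice were below every fed one, and in Y657X mice the lowest fed mouse overlapped the refed ones. Between refed and fed mice Mki67 was lower by -1.53 in wild-type (SE 0.35, edgeR adjusted p = 0.00108) and -2.20 in Y657X mice (SE 0.33, edgeR adjusted p = 6.7e-06), and both calls held when any single mouse was left out. With fasting it fell by 1.27 in Y657X mice (SE 0.32, edgeR adjusted p = 0.00205), a call lost without the 3 high mice (-0.68, adjusted p = 0.0672) and in a fit of only the groups compared (-1.27, adjusted p = 0.0584). In such a fit of the wild-type mice, Mki67 and Top2a were called lower with fasting, so the genotype in which they are called depends on the fit. With refeeding it fell by 0.99 in wild-type (SE 0.36, edgeR adjusted p = 0.0321) and 0.92 in Y657X mice (SE 0.35, edgeR adjusted p = 0.0399). The first call was lost without wild-type fasted 1 or 3 or wild-type refed 1, 2, 4 or 5 (adjusted p between 0.0515 and 0.0749), and within the lower and the higher number series it was -1.27 and -0.73, neither called. The second was lost without Y657X fasted 2 or 4 or Y657X refed 1, 3, 4, 5 or 6 (adjusted p between 0.0554 and 0.134), and within the lower and the higher number series it was -1.38 and -0.39.

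Top2a, the topoisomerase that untangles chromosomes, ran 2.27, 3 and 4.17 CPM in fed and 0.607, 1.46 and 2.27 CPM in refed wild-type mice, and 1.79, 4.69 and 10.1 CPM fed and 0.642, 1.07 and 3.53 CPM refed in Y657X mice. Fed wild-type mice were all above refed ones, the nearest pair by less than rounding shows, and Y657X groups overlapped. Top2a was lower in refed than in fed mice by -1.22 in wild-type (SE 0.40, edgeR adjusted p = 0.021) and -1.88 in Y657X mice (SE 0.38, edgeR adjusted p = 3.4e-04). The wild-type call was lost without wild-type refed 5 or 6 (adjusted p = 0.0518 and 0.0545). Fasted mice ran 1.52, 1.72 and 3.3 CPM in wild-type and 1.37, 1.85 and 5.4 CPM in Y657X and overlapped refed ones, and refeeding was called in neither genotype (-0.58, SE 0.41, edgeR adjusted p = 0.306, and -0.79, SE 0.40, edgeR adjusted p = 0.128). The Y657X fall with fasting (-1.09, SE 0.37, edgeR adjusted p = 0.0209, 5 of 6 mice) was lost without Y657X fed 3 or 4 or Y657X fasted 1 or 6 (adjusted p between 0.0522 and 0.0812), without the 3 high mice (-0.88, adjusted p = 0.0715) and in a fit of only the groups compared (-1.08, adjusted p = 0.0745).

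Of the genes of the spindle and its checkpoint, Bub1b fell with refeeding in both genotypes and Kif11 in Y657X mice. Tpx2, Prc1, Nusap1 and Aurka were not called with refeeding. Bub1b, the gene of a kinase-like protein of the spindle checkpoint, ran 0.859, 1.39 and 2.31 CPM in fasted and 0.294, 0.536 and 1.21 CPM in refed wild-type mice, and 0.666, 1.23 and 2.18 CPM and 0.218, 0.551 and 1 CPM in Y657X mice. Refed mice were mostly lower, with overlap in both genotypes. It fell with refeeding by 1.29 in wild-type (SE 0.37, edgeR adjusted p = 0.00627) and 1.34 in Y657X mice (SE 0.37, edgeR adjusted p = 0.0048), and no single mouse left out ended either call. Bub1b was also lower in refed than in fed Y657X mice (-1.70, SE 0.36, edgeR adjusted p = 4.6e-04). Kif11, the motor that pushes spindle poles apart, ran 1.08, 2.17 and 3.84 CPM in fed, 1.22, 2.24 and 3.44 CPM in fasted and 0.538, 0.988 and 1.41 CPM in refed Y657X mice. Refed mice were lowest, with a small overlap. It fell by 1.22 with refeeding (SE 0.32, edgeR adjusted p = 0.00326) and differed by -1.26 between refed and fed mice (SE 0.32, edgeR adjusted p = 0.00297), the latter lost without the 3 high mice (-0.82, adjusted p = 0.0701). Ube2c, which tags proteins for destruction at the end of mitosis, ran 0.463, 0.914 and 3.65 CPM in fasted and 0.193, 0.445 and 0.944 CPM in refed Y657X mice, which overlap. Its fall of -1.52 (SE 0.44, edgeR adjusted p = 0.0068, 5 of 6 mice) was -0.87 and no longer called without Y657X fasted 4 (adjusted p = 0.111) or without the 3 high mice (adjusted p = 0.117), and within the lower and the higher number series it was -2.72 and -0.16.

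Further mitosis genes were called where single mice, or the 3 high mice together, weighed heavily. Cdc20, an activator of the complex that ends mitosis, ran 0.49, 1.6 and 4.86 CPM in fed and 0.214, 0.392 and 0.834 CPM in refed Y657X mice, with overlap, and differed by -2.16 (SE 0.60, edgeR adjusted p = 0.00736), or -1.22 without the 3 high mice (adjusted p = 0.111). No single mouse left out ended the Cdc20 call (highest edgeR adjusted p = 0.0352). The spindle genes Tpx2 and Prc1 were also lower in refed than in fed Y657X mice (-1.06, SE 0.36, edgeR adjusted p = 0.0275, and -1.01, SE 0.35, edgeR adjusted p = 0.0317). Tpx2 ran 0.797, 1.48 and 2.02 CPM fed and 0.29, 0.684 and 1.23 CPM refed, and Prc1 ran 0.883, 1.69 and 3.49 CPM fed and 0.707, 0.928 and 1.61 CPM refed, with overlap in both. The Tpx2 call was lost without Y657X refed 1, 4 or 6 or Y657X fed 3 or 4 (adjusted p between 0.056 and 0.0735). The Prc1 call was lost without Y657X refed 1, 4, 5 or 6 or Y657X fed 3 or 4 (adjusted p between 0.0506 and 0.108). Without the 3 high mice neither was called (-0.82, adjusted p = 0.0982, and -0.41, adjusted p = 0.351). Ccna2, the gene of cyclin A2, which serves both S phase and mitosis, ran 2.9, 4.47 and 7.03 CPM in fed and 1.96, 3.11 and 5.19 CPM in fasted Y657X mice and fell by 0.51 in 5 of 6 mice (SE 0.20, edgeR adjusted p = 0.042). That call was lost without Y657X fasted 1, 2 or 6 or Y657X fed 3, 4 or 6 (adjusted p between 0.0675 and 0.181) and without the 3 high mice (-0.42, adjusted p = 0.106). With refeeding Ccna2 was not called over all mice (0.48, SE 0.20, edgeR adjusted p = 0.0625 in wild-type and 0.41, SE 0.20, edgeR adjusted p = 0.112 in Y657X mice). It was called higher in both genotypes without the 3 high mice (0.48, adjusted p = 0.0263, and 0.60, adjusted p = 0.0085). Ccnb2, the gene of a B-type cyclin, ran 0.0756, 0.566 and 1.68 CPM in fed and 0.0723, 0.158 and 0.233 CPM in fasted wild-type mice and fell by 2.09 (SE 0.76, edgeR adjusted p = 0.0329), lost without wild-type fed 5 or wild-type fasted 2, 5 or 6 (adjusted p between 0.055 and 0.172). Its mean count over all mice was 7.22. Cdk1, the kinase that drives entry into mitosis, lay between 0.384 and 5.68 CPM, Aurka between 1.08 and 4.14 CPM, Birc5 between 0.335 and 2.39 CPM and Nusap1 between 0.145 and 1.87 CPM, and none was called. Ccnb1 was at most 3.02 CPM, in Y657X fasted 4.

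Replication and mitosis genes were also set against each other within each mouse, as the ratio of their summed levels. The ratio ran, as lowest, median and highest, 3.64, 5.68 and 6.47 in fed, 4.62, 5.97 and 6.54 in fasted and 7.2, 7.67 and 8.81 in refed wild-type mice. In Y657X mice it ran 2.29, 4.3 and 6.13 fed, 1.77, 5.05 and 6.27 fasted and 5.36, 7.72 and 9.88 refed. All refed wild-type mice were above all fed and fasted wild-type mice, and refed Y657X mice overlapped the others through their lowest mouse. Such sums weigh the most abundant genes most. The replication sum is led by Tk1 (mean 18.6 CPM over all mice), Mcm7 (13.5 CPM) and Pcna (11.5 CPM). Mcm7 and Pcna were called in no comparison. The sum also holds E2f8, which rose with fasting, and Gins2, whose level is uncertain. No test was made of this ratio.

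Genotype was compared within each feeding state, to ask what the mutation changes at rest and under challenge. In fed mice, edgeR called 0 of 38 members (2.37% of all genes in either direction), with 10 at an unadjusted p under 0.05, and DESeq2 also called 0. All 14 mitosis genes tested had a positive fitted difference, with a median of 0.71 log2, beside 0.13 over the 24 replication genes and 0.01 over all genes. Without Y657X fed 3, Y657X fed 4 and Y657X fasted 4, the mitosis median was 0.19. These mice were picked for their high mitosis levels and all carry the mutation, so a smaller difference without them follows from the choice. The smallest p belonged to Mcm5 (0.74, SE 0.27, edgeR adjusted p = 0.129) and Mki67 (0.82, SE 0.31, edgeR adjusted p = 0.142), and the ranges of both genotypes overlapped for both genes. Both were called once Y657X fed 1, the lowest fed Y657X mouse in mitosis genes, was left out (adjusted p = 0.0431 and 0.0238). The difference shrank to 0.45 for Mcm5 without Y657X fed 4 (adjusted p = 0.461) and to 0.53 for Mki67 without Y657X fed 3 (adjusted p = 0.437). The count of 330 genes called over all genes was 202, 102, 210 and 124 without wild-type fed 1, 2, 3 and 4, 105, 68 and 91 without Y657X fed 3, 4 and 5, and 896 and 593 without Y657X fed 1 and 6. Of 5 fed mice with consecutive mouse numbers, the mitosis sums were 24.2 and 38 CPM in the 2 wild-type and 18.6, 27.2 and 37 CPM in the 3 Y657X mice, which overlap. The other fed wild-type mice carry lower numbers and the other fed Y657X mice, among them Y657X fed 3 and Y657X fed 4, higher ones. Outside this run, genotype and mouse number cannot be told apart in fed mice.

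In fasted mice, Mcm4 and, less firmly, Gins1 were lower in Y657X livers. All 6 fasted mice of each genotype fell on either side: 5.8 CPM or more of Mcm4 in wild-type against 5.61 CPM or less in Y657X, and 2.25 CPM or more of Gins1 against 2.11 CPM or less. The genotypes did not overlap for either gene. Of 38 members, 2 were called lower (6.63% of all genes) and 1 higher (6.43% of all genes), shares near or below those of all genes. The fitted difference was positive for 12 of 14 mitosis genes with a median of 0.40 log2, or 0.02 without the 3 high mice, and its median was -0.13 over the replication genes. Mcm4 was lower by -0.53 (SE 0.15, edgeR adjusted p = 0.013), called whichever mouse was left out. Gins1 was lower by -0.57 (SE 0.18, edgeR adjusted p = 0.027), a call lost without Y657X fasted 1 or 2 or wild-type fasted 2 or 3 (adjusted p between 0.0533 and 0.0717), without the filter on low counts (-0.58, adjusted p = 0.0756) and in a fit of only the groups compared (-0.54, adjusted p = 0.0691). Within the lower and the higher number series the differences were -0.42 and -0.65 for Mcm4 and -0.56 and -0.57 for Gins1, with 3 mice a group and none called. In the higher series every fasted wild-type mouse has a lower number than every fasted Y657X mouse. Genotype and mouse number cannot be told apart there. Ccnb2 was higher by 2.55 (SE 0.74, edgeR adjusted p = 0.0181, 5 of 6 mice), from 0, 0.872 and 1.89 CPM in Y657X against 0.0723, 0.158 and 0.233 CPM in wild-type mice. The groups overlap, and the call was lost without Y657X fasted 4 (2.16, adjusted p = 0.0653) and without the 3 high mice (2.16, adjusted p = 0.0579). DESeq2 gave Ccnb2 no adjusted p. Over all genes, 1821 were called, and 1168 without Y657X fasted 2.

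In refed mice, edgeR called 0 of 38 members (0.0287% of all genes in either direction), with 2 at an unadjusted p under 0.05, and DESeq2 called 1, Mcm3 (adjusted p = 0.0308). The median difference was 0.14 log2 over the replication and 0.10 over the mitosis genes. The smallest p belonged to Mcm3 (0.71, SE 0.17, edgeR adjusted p = 0.146) and Mcm5 (0.58, SE 0.27, edgeR adjusted p = 0.493). Refed Y657X mice, at 5.95 CPM or more of Mcm3, were all above refed wild-type mice, at 5.35 CPM or less. Over all genes 4 were called, and 1 without Y657X refed 2 or wild-type refed 1, 3, 4, 5 or 6, and 2 without Y657X refed 4.

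Whether the genotypes respond differently was tested as a difference of responses, which shares the fasted mice with the comparisons above. For fasting, 1 of 38 members was called (4.35% of all genes in either direction): Mcm4, whose response was -0.70 log2 in Y657X relative to wild-type mice (SE 0.20, edgeR adjusted p = 0.0393). The call was lost in 13 of 24 fits with 1 mouse left out, with adjusted p between 0.0501 and 0.0902, and without the 3 high mice (-0.65, adjusted p = 0.093). These mice were wild-type fed 1, 3 and 5, wild-type fasted 2, 3, 5 and 6, Y657X fed 2, 4 and 6 and Y657X fasted 1, 3 and 5. The count was 2 without wild-type fed 6, Y657X fed 1 or Y657X fasted 4. Differences in the fasting response of Mcm5 (-1.15, SE 0.42, edgeR adjusted p = 0.113) and Gins1 (-0.75, SE 0.24, edgeR adjusted p = 0.0664) were not called. For refeeding, 1 of 38 members was called (2.06% of all genes in either direction): Mcm3, whose response was larger by 1 on the log2 scale in Y657X mice (SE 0.24, edgeR adjusted p = 0.0222). It was lost without wild-type fasted 5 or Y657X fasted 1 or 2 (adjusted p between 0.0501 and 0.0503). The 287 genes called over all genes were 124 to 180 without Y657X fasted 1 or 2, Y657X refed 2 or 6, wild-type fasted 3 or wild-type refed 3 or 6.

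The other genes listed with these roles were counted in the same way, beside the shares of all genes given above. These lists too were chosen with earlier results of these data known, so a count above the share of all genes only describes them. Of 46 other replication genes, 43 were tested. With fasting, 3 rose and 7 fell in wild-type and 2 rose and 13 fell in Y657X mice, with Rpa1, a single-strand binding protein gene, falling by 0.57 (SE 0.08, edgeR adjusted p = 1.9e-07) and 0.69 (SE 0.08, edgeR adjusted p = 5.2e-09). The count lower in wild-type mice was near the share of all genes. With refeeding, 8 rose and 2 fell in wild-type, the rise again near the share of all genes, and 14 rose and 3 fell in Y657X mice, which for the rise is above it. They were led by Pold2, a subunit of DNA polymerase delta (1.23, SE 0.16, edgeR adjusted p = 2.0e-07, and 1.30, SE 0.16, edgeR adjusted p = 7.8e-08), and included the primase gene Prim1 (1.14 and 1.18). Between refed and fed mice, 4 were higher and 2 lower in wild-type and 2 higher and 3 lower in Y657X mice. By genotype, 0 were called in fed mice (7 at an unadjusted edgeR p under 0.05), 0 in refed mice (2 at that p) and 4 in fasted mice, 2 each way, led by Dbf4 (1.01, SE 0.21, edgeR adjusted p = 0.00151, 5 of 6 mice), which activates the kinase that fires origins. The DNA ligase gene Lig1 differed in the fasting response (-1.07, SE 0.29, edgeR adjusted p = 0.0271).

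Of 60 other mitosis genes, 41 were tested. Between refed and fed mice, 2 were higher and 7 lower in wild-type and 1 higher and 14 lower in Y657X mice, with medians of -0.24 and -0.72 log2. The count lower was near the share of all genes in wild-type and above it in Y657X mice. Among them was Smc4, a condensin subunit gene (-0.38 and -0.50). The summed level of these 60 genes was also highest in Y657X fasted 4 (220 CPM), Y657X fed 4 (209 CPM) and Y657X fed 3 (193 CPM). Every other mouse had 174 CPM or less, and no value without these mice is given. With refeeding, 4 rose and 6 fell in wild-type and 4 rose and 8 fell in Y657X mice, and with fasting 3 rose and 2 fell, and 3 rose and 9 fell, most of these near or below the shares of all genes. The kinetochore genes Spc24 and Spc25 went opposite ways with refeeding: Spc24 rose by 1.20 in wild-type and 1.21 in Y657X mice, and Spc25 fell by 1.04 and 1.57. By genotype, Cenpa, the gene of the histone variant of centromeres, was the 1 gene called in fed mice (1.10, SE 0.26, edgeR adjusted p = 0.0196). In fasted mice Ccnf was higher (0.75) and Pttg1 lower (-0.32), and in refed mice 0 were called, with 5 at an unadjusted edgeR p under 0.05. Ccnf, the gene of cyclin F, differed by genotype in the fasting (1.04) and the refeeding response (-1.05).

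Of 36 genes that control the cell cycle, 32 were tested, and their changes did not follow one direction. Wee1, a kinase that holds Cdk1 inactive, rose with refeeding by 1.68 in wild-type (SE 0.32, edgeR adjusted p = 1.2e-04) and 1.96 in Y657X mice (SE 0.34, edgeR adjusted p = 2.7e-05), from medians of 2.97 and 1.48 CPM in fasted to 9.75 and 8.94 CPM in refed mice. Rbl2, the gene of the pocket protein p130 found in resting cells, fell by 0.65 and 0.49 with refeeding. Ccnd3, the gene of cyclin D3, rose with fasting (0.49) and fell with refeeding (-0.72) in wild-type mice. Cdkn1a rose with fasting in Y657X mice (3.30, SE 0.67, edgeR adjusted p = 2.5e-04) and was higher in fasted Y657X than in fasted wild-type mice (2.54, SE 0.64, edgeR adjusted p = 0.00793, 5 of 6 mice), where Y657X ran 1.93, 13.4 and 59.2 CPM and wild-type 0.952, 2.86 and 7.37 CPM. The highest fasted Y657X mouse in Cdkn1a was also the highest in mitosis genes. In all, fasting called 6 of these genes higher and 5 lower in wild-type and 3 and 4 in Y657X mice, and refeeding called 4 and 7 in wild-type and 6 and 6 in Y657X mice, beside shares of 13.7% to 17.7% of all genes in each direction.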

How the data were processed

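Stranded total RNA libraries were sequenced as 50-base single reads. Each value the authors deposited is an estimated count; 3.64% were not whole and were rounded. The submitters' processing notes name Cuffdiff, SAMtools, featureCounts, edgeR and build mm9, but the loci of 36217 of 36341 identifiers found in GENCODE M21 overlap their GRCm38 positions. Members and lists were chosen with earlier results of these data known. Genes passing filterByExpr (minimum count 10) were fitted over 36 libraries and 6 groups with edgeR 4.0.16 (R 4.3.3): TMM scaling, quasi-likelihood test, Benjamini-Hochberg adjustment over 13945 genes. Alternatives were the likelihood ratio test, RLE scaling, no filter, the mouse-number series as a term, DESeq2 1.42.0, only the groups compared, each mouse left out, and, chosen after seeing the data, 3 mice left out. Named were all members called, 8 members whatever their result and, per comparison, up to 3 called genes of each other list with the smallest p. Promoters came from RefSeq, and exon overlaps from GENCODE M21. No 2 mice of a group matched within sampling noise (lowest chi-square per degree of freedom 6.59).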

Additional observations from a re-analysis of the deposited data

Results flagged for a closer look

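In 186 groups of 6 mice, over sums and single genes, the gap of each outermost mouse to its nearest neighbour was taken as a share of the group's range. In 23 groups it passed the Dixon limit for 6 values. Chance alone gives about 1 in 20 groups where values are independent and normally distributed. Low counts, and sums looked at beside their own genes in the same mice, do not meet this, so the 2 rates cannot be compared. Of the 23, 8 concerned Y657X fasted 4. Its summed mitosis level of 56.1 CPM, and its levels of Ube2c (3.65 CPM), Cdc20 (2.88 CPM), Tpx2 (2.32 CPM), Prc1 (3.65 CPM), Cdk1 (5.68 CPM) and Ccnb1 (3.02 CPM) were high, and its Tk1 (8.42 CPM) was low. In Y657X refed 2 the summed mitosis level (24.1 CPM), E2f2 (2.37 CPM), Ccne1 (3.27 CPM) and Brca1 (7.19 CPM) were high. In wild-type fed 5 the summed mitosis level (38 CPM), Rrm2 (12.7 CPM) and Prc1 (2.22 CPM) were high. The other 8 were spread over 7 mice. The summed mitosis level of wild-type fasted 1 was high (25 CPM), as were Rrm2 in Y657X fasted 3 (3.77 CPM), E2f8 in wild-type refed 3 (13.1 CPM), Ube2c in wild-type fasted 6 (1.38 CPM) and Bub1b in wild-type refed 6 (1.21 CPM). Kif11 was low in wild-type refed 6 (0.27 CPM), and Mcm2 was low in Y657X fasted 6 (1.45 CPM) and Y657X refed 3 (4.22 CPM).

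A test of the difference between genotypes picked out 2 genes: Mcm4 in the fasting response (-0.70 log2, edgeR adjusted p = 0.0393) and Mcm3 in the refeeding response (1 on the log2 scale, edgeR adjusted p = 0.0222).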

How the results depend on the processing

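Low counts limit the mitosis genes most: 5 of 19 were not tested, and those tested rest on few reads per mouse. Without the filter, Aurkb was called lower in refed against fed Y657X mice (-2.22 log2, edgeR adjusted p = 0.0264), at a mean count of 3.89. None of the other members left out by the filter was called in that fit. Of the 62 member calls, 39 were kept in every fit with 1 mouse left out and 23 were lost in at least 1, and no named value was reversed. Another scaling moved the median of all genes by at most 0.01 log2, and under it the 66 named gene values kept their side of the threshold. Of these 66, DESeq2 ended 1 call (Gins1 with refeeding in Y657X mice), gave no adjusted p for 1 (Ccnb2 by genotype in fasted mice) and added 1 (Mcm3 in refed mice), no filter on low counts ended 9 (Gins1 and Mcm4 in 2 comparisons each, Mki67 with refeeding in both genotypes, Mcm5 with refeeding in wild-type mice, Ccna2 with fasting and E2f8 with refeeding in Y657X mice), a fit of only the groups compared ended 11 (Gins1 by genotype and with refeeding, and in Y657X mice Mki67, Rrm1, Top2a and Ccna2 with fasting, Mcm4 and E2f8 with refeeding and E2f2, Prc1 and Mcm4 in refed against fed) and did not test 4 more (Ccnb2 with fasting in wild-type mice and by genotype in fasted mice, Uhrf1 with fasting and Ube2c with refeeding in Y657X mice), and leaving out the 3 mice highest in mitosis genes, chosen after seeing the data, ended 15. No paired analysis was possible because the mouse numbers mark different animals.

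In fed mice the genotype called 330 genes, and 516 by the likelihood ratio test, 207 without the filter, 644 by DESeq2, 30 in a fit of only those groups and 23 without the 3 mice; leaving out 1 mouse gave 68 to 896 genes and 0 to 2 members. In fasted mice the 3 members became 1 in a fit of only those groups, and 1 mouse left out gave 1168 to 2003 genes. In refed mice the 0 members became 1 by the likelihood ratio test and 1 by DESeq2, and the 4 genes became 18 and 25, or 1 to 6 with 1 mouse left out. Refeeding in wild-type mice called 4 to 8 members with 1 mouse left out. Refed against fed Y657X mice gave 5 members without the 3 mice and 7 to 13 with 1 mouse left out. The fasting difference between genotypes gave 0 members without the filter, 0 without the 3 mice and 0 to 2 with 1 mouse left out, and its 607 genes became 386 without the filter and 283 without the 3 mice. The refeeding difference gave 2 members without the 3 mice and 0 to 1 with 1 mouse left out, and its 287 genes became 152 without the filter and 124 to 391 with 1 mouse left out. The cause was not tested.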
